A study of Drosophila melanogaster with 3 samples.

Results

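The cytoplasmic ribosomal protein genes of Drosophila melanogaster encode the protein subunits of the ribosomes that translate nuclear messages. They were taken as the protein-coding genes whose symbol in the Ensembl annotation begins with RpL, RpS or RpLP and a number, which left out the mRp genes of the mitochondrial ribosome. The rule found 92 of the 13945 coding genes on the 6 chromosome arms: 47 of the large subunit, 3 of its stalk (RpLP0, RpLP1 and RpLP2), 37 of the small subunit, and 5 whose symbol ends in -like. The rule itself uses gene names and no binding value, but the family was picked with earlier results of these data known. Binding was measured by chromatin immunoprecipitation and sequencing in whole animals at the white prepupa stage, males and females together, of a transgenic strain (Lpt-GFP) with GFP at the C terminus of Lpt. An antibody to GFP was used, and 3 biological replicates of 1 technical replicate each form the only group. The age of the animals is unknown per the labels, and neither the promoter that drives the fusion nor the state of the untagged Lpt gene is given there.

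Lpt (Lost PHDs of trr) belongs to the complex of the methyltransferase Trr, which marks enhancers and some promoters through histone H3. Ribosomal protein genes are transcribed in nearly all cells, and flies that lose a single copy of many of them grow slowly with thin bristles, the Minute phenotype. Their start sites in flies often carry a pyrimidine-rich initiator, the TCT element, in place of the common initiator, and the factors M1BP and DREF are known at many of their promoters.

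The files were lists of peaks in dm6 coordinates. The list from the IDR step (irreproducible discovery rate, a filter for peaks whose rank repeats between replicates) held 6110 peaks. The lists behind it held 30000, 30000 and 27893 regions in replicates 1, 2 and 3, background included. Each peak carries the signal value of the authors and a summit. Peaks were ranked by signal within a list, rank 1 being the strongest, and a summit within 1000 bp of an annotated transcription start site (TSS) was called a promoter summit. Median signal was 18.5, 25.02 and 16.7 in the 3 replicate lists, so ranks and not signals compare replicates. Depth in reads is unknown, and no control was analysed here. In whole animals, binding in few cells and weak binding in many cannot be told apart.

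Lpt-GFP was found at the promoters of 23 of the 92 ribosomal protein genes (25%, exact 95% CI 16.6 to 35.1, counting error only). The same rule called 19.2% of all coding genes, a share inside that interval. Among the strongest 6110 peaks of replicates 1, 2 and 3, 27, 23 and 23 ribosomal protein genes had a promoter summit. That is 24.3 ± 2.31 genes or 26.4% ± 2.51, against 19.4% ± 0.233 of all coding genes (SD, n = 3 each), for which the shares were 19.6%, 19.2% and 19.3%. The count fell when IDR peaks were asked to overlap the strongest regions of a given pair of replicates, a stricter demand by construction. With that demand, 12 genes (13.0%) were left without replicate 1 and 13 (14.1%) without replicate 3, against 13.2% and 14.8% of all coding genes. Without replicate 2, 16 genes (17.4%) were left, against 14.4%. A promoter summit among the strongest 6110 of all 3 replicates was present at 12 members (13.0%), against 12.9% of all coding genes, and of any replicate at 38 members (41.3%), against 26.5%.

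**Figure D1:**
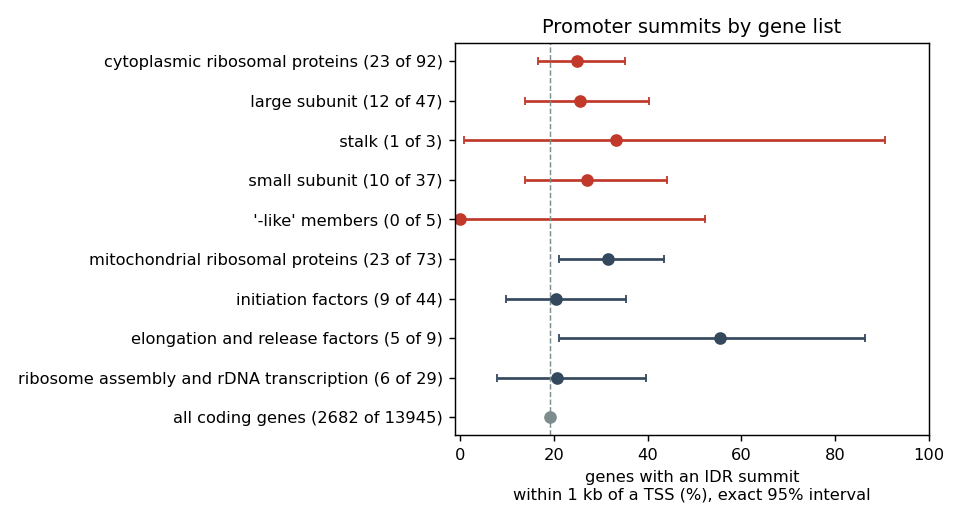
Share of genes with a promoter summit in the IDR list (points, percent, with exact 95% intervals) for the ribosomal protein genes and their subgroups, for other lists of the translation machinery and for all coding genes (dashed line, 19.2%). The interval of the ribosomal protein genes, 16.6 to 35.1%, holds the share of all coding genes.

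Genes of both subunits were represented. A promoter summit was present at 12 of 47 large subunit genes (25.5%), at 1 of 3 stalk genes and at 10 of 37 small subunit genes (27.03%). None of the 5 -like genes had one, a count that allows up to 52.2% (exact interval). On the X, 5 of 14 members had one (35.7%), against 20.6% of all coding genes there. On arm 3R it was 8 of 23 (34.8%), against 20.02%, and on 2R 3 of 21 (14.3%), against 18.2%. On the autosomes together 18 of 78 members had one (23.1%), against 18.97% of all coding genes there. The only member on chromosome 4, RpS3A, had none. Of the 28 members with a snoRNA gene inside them, 8 had a promoter summit (28.6%), and of the 64 without, 15 (23.4%). The intervals of these shares overlap.

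The best-ranked members were a mixture of summits at a ribosomal protein gene itself and summits closer to a neighbour. RpS19b, a paralog of the small subunit protein RpS19 that is enriched in the germline, had the best rank, 539 of 6110 (chr3R:23934316-23934540). Signal there was 101, 203 and 118 in replicates 1, 2 and 3, and the ranks were 928, 389 and 605. The summit stood 903 bp upstream of RpS19b, inside an intron of CG5854 and 521 bp from a TSS of that gene. The next member stood at rank 852.

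RpL34b, of the large subunit, ranked 852 (chr3R:9401116-9401551), with signals of 104, 108 and 118 and ranks of 869, 1559 and 613 in the replicates. This summit lay 108 bp upstream of its TSS, between genes. RpL34b was 1 of 2 members with further promoter summits, one of rank 3737 at 308 bp upstream, nearer to CG8132, and one of rank 3343 at 911 bp downstream, nearer to CG34117. RpL32, a large subunit gene often used as a reference in fly expression assays, ranked 1050 (chr3R:30046237-30046404). Its signals were 102, 78.4 and 136 and its ranks 912, 2878 and 442. That summit lay between RpL32, at 172 bp, and CG7943, at 137 bp.

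RpS20, of the small subunit, ranked 1087 (chr3R:20821838-20822273), with signals of 86.9, 112 and 106 and ranks of 1275, 1456 and 751. The summit was 125 bp upstream of RpS20, between genes. RpL7, of the large subunit, ranked 1347 (chr2L:10200824-10201259). Here signals were 80.4, 112 and 68.5, at close ranks of 1505, 1450 and 1734, and the summit lay in an exon of RpL7, 38 bp downstream of a TSS. RpL7 shares its start region with Ripalpha, whose TSS is 30 bp from one of RpL7.

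RpL10Ab, which encodes the protein of the L1 stalk, ranked 1562 (chr3L:11822355-11822790). Its signals were 66.5, 61.2 and 123, with ranks of 2149, 4414 and 548, so replicate 3 stood above the other replicates. The summit lay 278 bp upstream of RpL10Ab. The strongest promoter summits of RpS28b (rank 1789, chrX:9553626-9554061) and of RpS28a (rank 1910, chr3R:30021909-30022344), 2 copies of the small subunit gene RpS28, lay nearer to neighbours. That of RpS28b was 779 bp upstream of it and 94 bp from l(1)G0320. That of RpS28a was 521 bp downstream of it, in an exon of Mgat2 and 94 bp from its TSS. RpS28b also had a summit of its own, 8 bp downstream of its TSS, at rank 5779. The peak at RpS28a differed most between replicates, with ranks of 1396, 1474 and 7834.

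RpS10b, of the small subunit, ranked 2975 (chrX:19597767-19598202). Signals were 58.8, 77.4 and 41.6, ranks were 2668, 2935 and 3750, and the summit lay 46 bp upstream of its TSS. RpL23, of the large subunit, ranked 3109 (chr2R:22853839-22854274). It had signals of 47.1, 62.0 and 49.6 and ranks of 3922, 4308 and 2873. The summit stood 326 bp upstream of RpL23 and 230 bp from CG13531.

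Of the 23 members, 18 (78.3%) owned the coding TSS closest to their strongest promoter summit, and RpS19b, RpL32, RpS28b, RpS28a and RpL23 were not. Over all coding genes with a promoter summit the share was 75.4%. Of the 23 summits, 16 lay between genes, 5 in an exon and 2 in an intron.

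The 101 bases around the summit (50 on each side) are shown for 8 members that own the nearest coding TSS. Their ranks run from 852 to 4156 of 6110. These are sequences under summits closer to a ribosomal protein gene than to any other coding gene. They read 5′ to 3′ along the gene, from the RefSeq copy of the release 6 (dm6) genome. Capitals mark matches on either strand to TATCGATA (the DREF element), to GGTCACACT (motif 1, which the factor M1BP binds), to the repeat motif GAGAG of the protein Trithorax-like, to the E-box element CACGTG, or to the TATA box with the letters TATAAA. None of the matches overlap in these windows.
RpL34b (chr3R:9401284-9401384, minus strand): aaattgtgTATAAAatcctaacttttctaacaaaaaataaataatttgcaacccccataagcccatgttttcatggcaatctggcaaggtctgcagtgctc
RpS20 (chr3R:20822006-20822106, plus strand): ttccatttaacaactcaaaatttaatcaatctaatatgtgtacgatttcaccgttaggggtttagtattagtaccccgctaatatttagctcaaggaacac
RpL7 (chr2L:10200992-10201092, plus strand): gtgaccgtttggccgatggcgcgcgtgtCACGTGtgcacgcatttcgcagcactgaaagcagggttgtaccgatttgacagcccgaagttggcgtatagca
RpL10Ab (chr3L:11822523-11822623, plus strand): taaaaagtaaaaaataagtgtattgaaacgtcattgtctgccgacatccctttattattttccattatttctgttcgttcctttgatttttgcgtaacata
RpS10b (chrX:19597935-19598035, plus strand): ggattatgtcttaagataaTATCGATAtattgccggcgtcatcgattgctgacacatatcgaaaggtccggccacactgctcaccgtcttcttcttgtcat
RpS21 (chr2L:2855989-2856089, plus strand): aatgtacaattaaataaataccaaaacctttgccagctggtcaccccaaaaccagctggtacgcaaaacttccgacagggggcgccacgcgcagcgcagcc
RpLP0 (chr3L:22075999-22076099, plus strand): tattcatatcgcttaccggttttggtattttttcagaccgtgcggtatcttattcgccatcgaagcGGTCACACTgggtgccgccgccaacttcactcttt
RpL22 (chrX:765160-765260, minus strand): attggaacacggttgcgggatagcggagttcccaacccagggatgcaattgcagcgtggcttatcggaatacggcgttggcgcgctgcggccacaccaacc

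These windows shared no single motif. RpL34b held the letters TATAAA, near the upstream end of its window. RpL7 held an E-box, RpS10b a DREF element and RpLP0 motif 1, and the other 4 held none of the 5 motifs.

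The remaining members with a promoter summit ranked from 3290 to 6098. All 13 were the coding gene nearest to the summit. Most had the summit upstream, among them RpS21 at −31 bp (rank 3290), RpLP0 at −43 bp (3579), RpL22 at −80 bp (4156), RpL14 at −40 bp (4475), RpL24 at −35 bp (4692), RpS25 at −38 bp (5081), RpL3 at −105 bp (5448), RpL27A at −93 bp (5519) and RpL19 at −64 bp (6002). It lay downstream at RpS19a, by 23 bp (5452), and at RpS5a, by 17 bp (6098). RpLP0 carries the stalk that recruits elongation factors, RpL3 lines the approach to the peptidyl transferase centre, and RpS19a and RpS5a are the copies with the wide expression in their paralog pairs. At RpL22 the TSS of the noncoding gene lncRNA:CR44966 was nearer than its own.

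**Figure D2:**
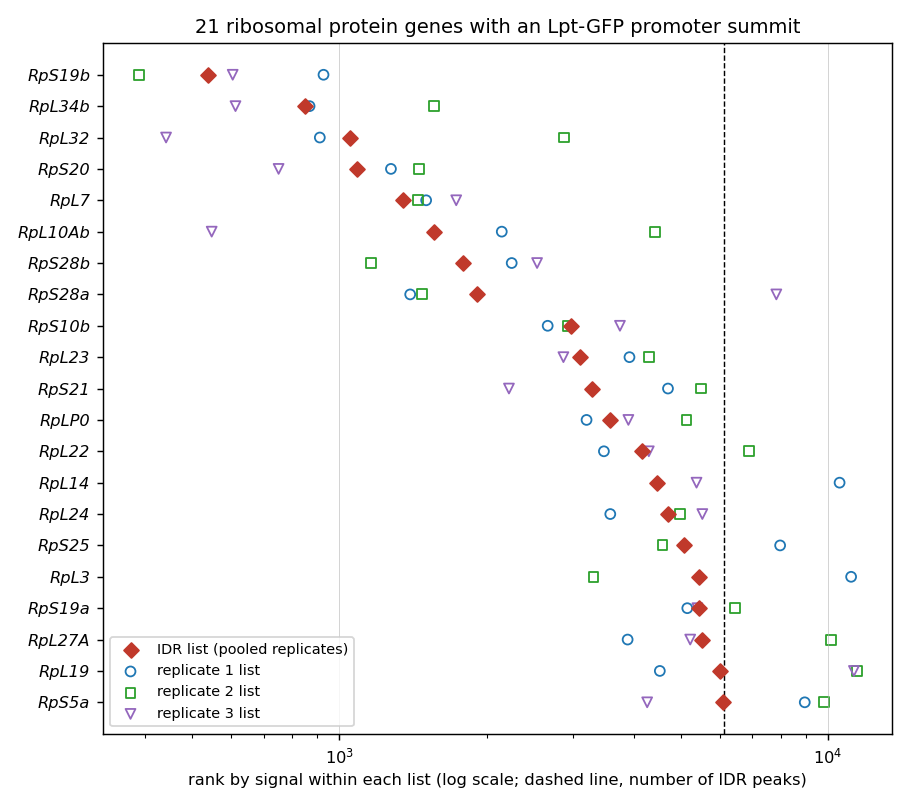
Rank by signal (log scale) of the IDR peak at 21 ribosomal protein genes with a promoter summit (red diamonds) and of the strongest overlapping region in replicates 1, 2 and 3 (open symbols); a missing symbol means no overlapping region. The 8 genes down to RpS28a sit at IDR ranks of 539 to 1910, and RpL14, RpS25 and RpL3 lack a symbol for 1 replicate.

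Over the 23 IDR peaks, the median rank of the strongest overlapping region was 3477 in replicate 1, 4498 in replicate 2 and 3750 in replicate 3. Replicates 1, 2 and 3 overlapped 23, 22 and 21 of the peaks, and 19, 15 and 18 of them were among the strongest 6110 regions. RpL14 had no overlapping region in replicate 2, and RpS25 and RpL3 had none in replicate 3. RpL3 ranged from rank 3310 in replicate 2 to 11142 in replicate 1. In all, 5 members were among the strongest of 2 replicates and 6 (among them RpL14, RpS25, RpL3, RpL19 and RpS5a) of 1, and the other 12 of all 3.

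Summits at ribosomal protein genes stood close to the start site. The strongest promoter summit had a median position of −46 bp (quartiles −116.5 and −29.5) at the 23 ribosomal protein genes and of −145 bp (quartiles −279.75 and 9.75) at all 2682 coding genes with one. It lay within 100 bp of a TSS at 14 of 23 members (60.9%) and at 18.9% of all coding genes with a promoter summit. Of all coding genes, with or without a promoter summit, 4.55% had any IDR summit that near, as did 15 of all 92 members. Between 20 and 60 bp upstream stood 7 of the 23 (30.4%), against 3.09% of those 2682 genes. A single annotated TSS was present in 47.8% of members with a promoter summit and in 50.3% of all coding genes with one. Over all 92 members it was 52.2%, against 73.5% of all coding genes. Shares of the whole family that count any TSS therefore had more than 1 site at more of the members. With the most upstream TSS alone the share within 100 bp was 56.5% in members and 17.5% in all coding genes.

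The share near the start site differed with rank and with the replicates asked for. Over members ranked above the midpoint of the IDR list it was 2 of 9 members (22.2%), against 15.1% of all coding genes there. Below the midpoint it was 12 of 14 members (85.7%), against 24.5%. Without replicate 1 it was 5 of 12 members (41.7%), against 15.1% of all coding genes, and without replicate 3 it was 5 of 13 (38.5%), against 17.4%. The strongest peaks of single replicates gave 51.9%, 43.5% and 47.8% of members, a mean of 47.7% ± 4.19, against 19.96% ± 3.06 of all coding genes (SD, n = 3 each). The position within the promoter also differed between lists: medians over members were −55, −117 and −102 bp in replicates 1, 2 and 3, against −144, −136 and −165 bp over all coding genes. How far the start site itself, and not the peak strength, sets these values was not tested.

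**Figure D3:**
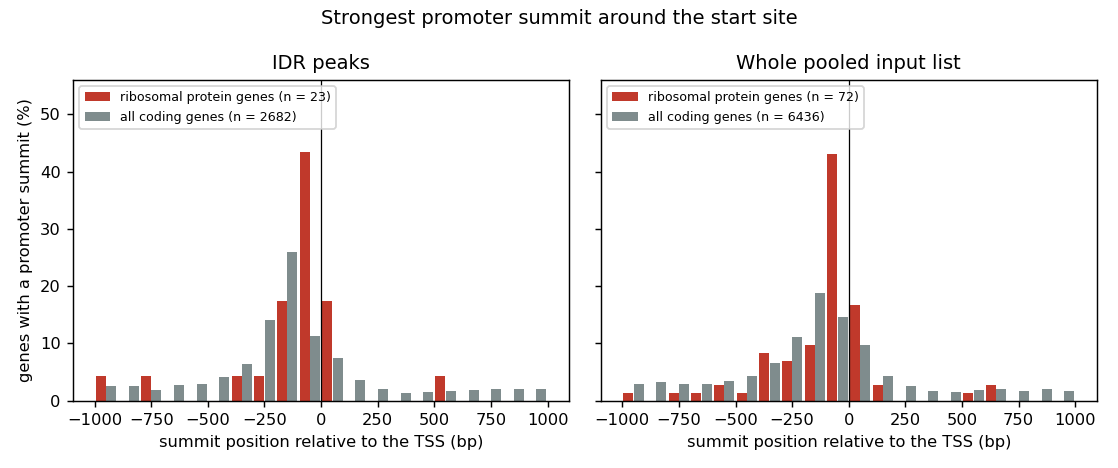
Position of the strongest promoter summit relative to the TSS (negative is upstream, bins of 100 bp) as percent of the genes with such a summit, for ribosomal protein genes (red) and all coding genes (grey), in the IDR list and in the whole pooled list. In both panels the tallest red bar is that of the 100 bp before the TSS (43.5% and 43.1%) and the tallest grey bar that of 200 to 100 bp upstream (26.0% and 18.8%).

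Initiator letters were more common at ribosomal protein genes than in the genome, as known for this family. CTTT on the strand of the gene, with its C within 5 bases of an annotated TSS, was taken as the core of the TCT initiator. It was found at 58 of 92 members (63.0%) and at 8.07% of all coding genes. Its presence did not separate members with a promoter summit (15 of 23, 65.2%) from those without (43 of 69, 62.3%). Among members with a promoter summit, the summit lay within 100 bp of a TSS at 12 of the 15 with the initiator and at 2 of the 8 without. Other coding genes with the initiator had it that near in 19.9% of 301 cases, and those without in 18.4% of 2358. That split counts the initiator at any TSS of the gene, and for 6 of the 12 members it stood only at another TSS than the one nearest to the summit. Taken at the nearest TSS alone, the summit lay within 100 bp at 6 of the 9 members with the initiator (66.7%) and at 8 of the 14 without (57.1%). Over all coding genes with a promoter summit these shares were 21.6% and 18.8%. These splits were chosen after the values were seen and were not tested.

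The start sites of 9 members with the summit within 60 bp of their own TSS are shown, since close summits stood at starts with and without the initiator. The first 5 hold it and the last 4 do not. Each line gives 20 bases on either side of the TSS from the same genome copy, 5′ to 3′ along the gene, and capitals mark the CTTT where it is present.
RpLP0 (chr3L:22076072-22076112, plus strand): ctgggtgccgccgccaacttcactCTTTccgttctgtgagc
RpL14 (chr3L:8600986-8601026, plus strand): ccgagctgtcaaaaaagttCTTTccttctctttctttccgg
RpS25 (chr3R:11216267-11216307, minus strand): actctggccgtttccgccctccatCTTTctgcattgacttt
RpS19a (chrX:16637874-16637914, plus strand): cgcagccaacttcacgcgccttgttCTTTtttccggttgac
RpS5a (chrX:17148244-17148284, minus strand): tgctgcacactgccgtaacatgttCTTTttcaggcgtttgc
RpL7 (chr2L:10200984-10201024, plus strand): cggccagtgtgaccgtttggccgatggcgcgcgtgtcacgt
RpS10b (chrX:19598011-19598051, plus strand): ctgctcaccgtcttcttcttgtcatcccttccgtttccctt
RpS21 (chr2L:2856050-2856090, plus strand): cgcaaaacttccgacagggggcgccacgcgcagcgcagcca
RpL24 (chr2L:13395111-13395151, minus strand): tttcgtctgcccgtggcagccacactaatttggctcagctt

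These windows were chosen after the values were seen. Summit positions were −43, −40 and −38 bp for RpLP0, RpL14 and RpS25, and 23 and 17 bp for RpS19a and RpS5a. Starts without the initiator had them as near, at 38 bp for RpL7, −46 bp for RpS10b, −31 bp for RpS21 and −35 bp for RpL24. RpL7, RpS21 and RpL24 have 2 annotated TSSs and RpS10b has 3, and only the one nearest to the summit is shown. Among members with a summit within 100 bp, 6 held the initiator only at another TSS. These genes are therefore not examples of genes that lack it.

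Of the other promoter motifs, searched on both strands from 250 bases before to 50 after each TSS, the DREF element was present at 28 members (30.4%), against 10.2% of all coding genes. The E-box CACGTG, the site of Myc and related factors, was at 15 members (16.3%), against 5.30%, and motif 1 at 10 (10.9%), against 6.78%. GAGAG was at 19 members (20.7%), against 36.3% of all coding genes, and TATAAA at 51.1%, against 51.2%. Members with a promoter summit carried GAGAG in 3 of 23 cases (13.0%), against 52.1% of all coding genes with one. Within 50 bases of the summit, GAGAG was found at 1 of the 23 members (RpS5a), against 16.2% of all IDR summits. The DREF element was there at 3 members, RpS10b and RpS25 among them (13.0%), against 0.344% of all IDR summits, at promoters or not. In the window around the TSS it was at 5 of 23 members with a promoter summit (21.7%) and 23 of 69 without (33.3%). A match is a description of letters, and no binding of these factors was measured.

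With regions below the IDR threshold included, most ribosomal protein genes had a promoter summit. In the whole pooled list of 30000 regions, 72 of 92 members (78.3%) had one, against 46.2% of all coding genes. These counts include the 23 members and 2682 coding genes already reached by the strongest 6110 pooled regions. Whole lists of replicates 1, 2 and 3 gave 75, 74 and 61 members, a mean of 76.1% ± 8.49, against 47.3% ± 2.07 of all coding genes (SD, n = 3 each, the single values being 49.5%, 46.9% and 45.4%). A promoter summit in all 3 whole lists was present at 54 members (58.7%), against 33.3% of all coding genes, and in none at 9 members (9.78%), against 38.1%. These lists hold background regions by design, so a summit in them is not a reproducible peak.

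**Figure D4:**
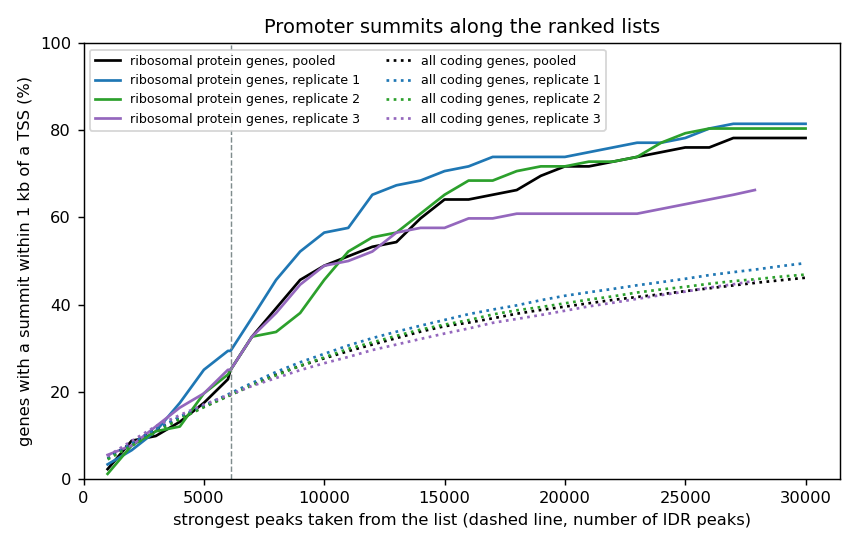
Share of genes with a summit within 1 kb of a TSS (percent) as more of the strongest regions of a list are taken, for ribosomal protein genes (solid lines) and all coding genes (dotted lines), in the pooled list and in each replicate list; the dashed line marks 6110 regions. At 3000 pooled regions the values are 9.78% and 11.2%, and at 10000 they are 48.9% and 27.6%.

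Ribosomal protein genes gathered just past the threshold. The strongest 3000 pooled regions reached 9 members (9.78%), against 11.2% of all coding genes. Regions ranked from the threshold to 10000 added 22 members (23.9%), against 8.40% of all coding genes. These 22 include RpL13A (pooled rank 6141), RpS15Aa (6383), RpL31 (6468), RpL34a (6472) and RpL18 (6498). The members nearest to the threshold on its inner side were RpS5a (6098) and RpL19 (6002). Because so many members lie around the threshold, their count moves with it: with 2 × 6110 regions per replicate the mean was 54 members (58.7% ± 6.79), against 31.3% ± 1.40 of all coding genes (SD, n = 3 each). The median pooled rank of all 72 was 8046, against 7629.5 over all coding genes in the list.

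Among the 69 members without an IDR promoter summit, the 5 with the best median rank over the replicate lists were RpS27, RpL11, RpS16, RpL13A and RpL36. RpS27, of the small subunit, had a summit at rank 1009 in replicate 2 (−185 bp) and 1013 in replicate 3 (−39 bp) and none in replicate 1. The pooled list held only a region of rank 21886 there, 627 bp downstream. RpL11, which joins the ribosome with RpL5 and the small 5S rRNA, ranked 2920 in replicate 1 and 2601 in replicate 2, was missing from replicate 3, and ranked 14953 in the pooled list. RpS16, whose tail reaches the P-site tRNA, ranked 5262, 6178 and 3220 in the replicates, at −55, −64 and −70 bp, and had no promoter summit in the pooled list. It was the only member present in all 3 replicate lists and absent from the pooled one (1 of 54), as were 1.74% of all coding genes in all 3 lists. RpL13A ranked 5557, 10887 and 3623, and RpL36 ranked 4567 and 5682 in replicates 1 and 2 and was missing from replicate 3 and from the pooled list.

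Several well-known subunits had no IDR promoter summit. RpS6, the target of S6 kinase in the TOR pathway, had a pooled promoter region at rank 9268, 9 bp downstream of a TSS, with replicate ranks of 15168, 6106 and 9253. RpS3, at the entry of the messenger channel, ranked 13763 in the pooled list and 6144 and 18639 in replicates 1 and 2. RpL5 ranked 7787 in replicate 1 and 7802 in replicate 3 and was in neither replicate 2 nor the pooled list. RpL40, translated as a fusion with ubiquitin, ranked 13678, with its summit 362 bp upstream. RpS27A, the other ubiquitin fusion, RpS2 and RpS30 had no summit within 1000 bp of a TSS in any list. Neither did RpL29, RpL37-2, RpL10Aa, RpL22-like and RpL24-like, 8 members in all. RpL10 had one in replicate 3 alone, at rank 26532. Of the acidic stalk proteins, RpLP1 had one in replicate 2 alone (rank 24806), and RpLP2 in the pooled list (18873) and replicate 2 (24135), whereas RpLP0 had an IDR summit.

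By the call of an IDR promoter summit, paralogs differed in 4 of 8 pairs, named with a final a and b. Both copies of RpS19 and RpS28 had one, 1 copy of 4 pairs did, and neither copy of RpS14 and RpS15A. The strongest summits of RpS19b, RpS28a and RpS28b lay nearer to a neighbour's TSS, and of these only RpS28b had another, near its own TSS. The split also depends on the threshold: RpS5a lay just inside it, and RpS15Aa (pooled rank 6383) and RpL34a (6472) lay past it. In the 4 pairs that differed, the copies with a summit were RpL10Ab (rank 1562), RpL34b (852), RpS10b (2975) and RpS5a (6098). Their partners were absent from the whole lists (RpL10Aa), weak (RpL34a, pooled rank 6472, and RpS5b, an ovary-enriched copy, pooled rank 19920) or present in the pooled list alone (RpS10a, rank 17316). RpS14a and RpS14b lie side by side on the X (chrX:7933742-7934677 and chrX:7934898-7935792), with pooled ranks of 13266 and 8178. RpS15Aa ranked 6383 and RpS15Ab 26221. Of the -like genes, RpL7-like ranked 7420, RpS28-like 8531 and RpLP0-like 22394, and RpL22-like and RpL24-like were absent. How reads that match several copies were treated is not given in the sources used here, so values of near-identical copies are uncertain.

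Ribosomal protein genes lie close to other genes, and those that do had more promoter summits, as did all coding genes. The 1000 bp rule also counts a summit at a neighbour's promoter, so genes with a close neighbour can gain one by the rule itself. A TSS of another coding gene lay within 1000 bp at 58 of 92 members (63.0%), against 42.9% of all coding genes. Of these 58, 19 had a promoter summit (32.8%), and of the other 34, 4 did (11.8%). Over all coding genes the same shares were 26.1% with such a neighbour and 14.1% without. The 4 members with no such neighbour were RpS10b, RpL22, RpL24 and RpL27A, each with the summit within 100 bp of its own TSS. Members were short, with a median length of 1315 bp, against 2166 bp over all coding genes. Farther out, 42 members (45.7%) had at least 1 IDR summit in the gene or the 5000 bp on each side, against 45.3% of all coding genes. Just beyond the 1000 bp limit, RpLP0-like had its nearest IDR summit at 1291 bp and RpL31 at 1671 bp. Just within it, RpS19b had its summit at 903 bp.

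Other genes of the translation machinery were described by the same count. The 23 cytoplasmic members with a promoter summit had a median rank of 3579, against 2451.5 over all coding genes with one, so their summits were the weaker ones. In the strongest peaks of single replicates the medians were 3704 ± 554 and 2468 ± 188 (SD, n = 3 each). For the 23 of 73 mitochondrial ribosomal protein genes with one (31.5%) the median rank was 3367. The summit lay within 100 bp of a TSS at 14 of the cytoplasmic genes and at 3 of the mitochondrial ones. The gene itself was the nearest coding gene at 18 cytoplasmic and 6 mitochondrial ones. Initiation factors had one in 9 of 44 cases (20.5%), among them eIF4A, the helicase that unwinds messages (rank 5990, 27 bp downstream), and eIF6, an anti-association factor (rank 48, −110 bp). Elongation and release factors had one in 5 of 9: eEF1gamma (rank 2370, −22 bp), eRF3 (3170, −307 bp), eEF2 (5166, −10 bp), eRF1 (5834, −78 bp) and eEF1alpha1 (6105, −535 bp). For ribosome assembly and rDNA transcription it was 6 of 29 (20.7%), with eIF6, Ns2, NHP2, peng, Polr1D and Nopp140. The ribosomal protein gene sta and the ribosome-bound scaffold gene Rack1, which the name rule misses, had none. Among 5 genes of factors known at ribosomal protein promoters, M1BP (rank 1620) and Trf2 (rank 3044) had one and Dref, Tbp and Taf1 did not. The exact intervals of these lists, drawn in the plot of shares by gene list, are wide, and no list was tested against another.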

How the data were processed

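Peak lists were those the authors deposited in dm6 coordinates: the optimal IDR list, its 3 replicate input lists and a pooled one. The signal of each peak is the authors' value as deposited. DNA was sonicated to 200 to 800 bp per the labels. The sources used here do not give the aligner, peak caller or IDR threshold. All samples form 1 group, with replicate numbers from the labels, so no test was made.

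Summits were measured against every TSS of Ensembl release 115, without transposable elements. Regions overlapped if they shared 1 base. The nearest coding gene was taken for the strongest promoter summit. Intervals are exact (Clopper-Pearson, 95%). The assignment returned all 200 summits planted in simulated data. Members and lists were chosen with earlier results of these data known. Named were members with a promoter summit (the first 10 in full), fixed well-known subunits, paralogs and the 5 best without one. Some members are counted but not reported here by name. Alternatives covered distance, TSS choice, peak sets and replicates left out. Work was done in Python 3.11.15 with pandas 2.3.3 and numpy 2.4.6 (intervals from scipy 1.17.1, plots from matplotlib 3.10.9).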

Additional observations from a re-analysis of the deposited data

How the results depend on the processing

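Of 68 alternative values of 8 results, 36 stayed close to the reported value and 32 moved. The 23 members with a promoter summit became 38 within 5000 bp of a TSS, 9 with the upper part of the IDR list, 12 with peaks strong in all 3 replicates, and 12 to 16 with 1 replicate left out. Those nearest to their own summit (18) became 5, 8 and 8 to 12 in the last 3 settings. All coding genes (2682) became 1742 within 250 bp, 5460 within 5000 bp, 1598 and 1746 in the upper part and in peaks strong in all 3, and 1837 to 2058 with 1 replicate left out. The median rank of 3579 became 4156 within 500 bp, 4475 within 250 bp, 4315.5 for own summits, and 1675.5 to 3042 with 1 replicate left out. The median distance of 80 bp became 43 bp within 250 bp, 44.5 bp for own summits, and 86.5 to 125 bp with 1 replicate left out. The 24.3 members per replicate became 54 with 2 × 6110 regions and 70.0 with whole lists, and 23 to 25 with 1 replicate left out. The share within 100 bp (60.9%) was 51.9%, 43.5% and 47.8% in single replicates, 56.5% with the most upstream TSS, 77.8% for own summits and 38.5 to 56.25% with 1 replicate left out. Fewer peaks or wider windows are part of these settings. Leaving out 1 replicate kept only IDR peaks that overlap the strongest regions of the other replicates, so it also meant fewer peaks. For the mean per replicate it only dropped that replicate from the mean. Why values differ between single replicates was not tested. No paired analysis was possible because there is 1 group. Read depth is unknown.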
